A study of Mus musculus with 8 samples.

Results

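The 7 subunits of respiratory complex I that are encoded by the mitochondrial genome, ND1, ND2, ND3, ND4, ND4L, ND5 and ND6, were followed in RNA-seq libraries of mouse hippocampus. They were chosen by name, with the results of the comparison of the groups already known, as the rows of the deposited count table that carry these symbols, and all 7 of the 7 were found among 29442 genes. The difference of a member between the groups is therefore given as a description, with no test.

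The data comprised 8 libraries from female C57BL/6 J mice, 4 labelled DHEA and 4 labelled sesame oil. According to the methods, the animals were 6 to 8 weeks old and received subcutaneous injections for 21 days, either of DHEA (dehydroepiandrosterone, an adrenal steroid from which androgens are made) at 30 mg/kg/day or of the sesame oil in which it was given. Both groups shared strain, sex and age, no allele is named for either, and the methods give the ventral hippocampus as the source of the RNA. The study asked which hippocampal transcripts accompany chronic DHEA treatment. Libraries were made from polyadenylated RNA, although the methods report extraction of total RNA and describe no step that selects it. According to the methods, the hippocampus of each mouse was divided, with a part used for RNA-seq, from 4 mice per group. The labels themselves do not tie a library to an animal, and the series' design text speaks of 6 tissues where 8 libraries are listed, so the n of 4 per group counts labelled libraries.

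The 4 DHEA libraries held 38038361, 36792550, 35748416 and 36206289 counts (replicates 1 to 4). The 4 sesame oil libraries held 32757366, 35418297, 31483772 and 33109760 counts. Every DHEA library was thus deeper than every sesame oil library. Depth and group cannot be told apart in raw counts, and levels are given below as counts per 1000000 after TMM scaling (CPM), a scaling by the bulk of the genes, or as FPKM, which also divides by transcript length.

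Group membership rests on the deposited labels. By these labels, the vasopressin receptor gene Avpr1a, which was looked up after its values were seen, was higher in DHEA, with a log2 fold change of 1.46 ± 0.56 (SE, n = 4 per group) and overlapping groups. The 5 other genes that were followed by qRT-PCR were looked up in the same way. P2ry10b (1.05 ± 0.46) and Ccr10 were likewise higher, and Pomc (-1.16 ± 0.48), Aox2 and Wnt3a were lower, in DHEA by the labels, with Ccr10, Aox2 and Wnt3a averaging under 3 counts per library. The text of the study gives every one of these genes the other direction. Whether the labels of the groups are exchanged cannot be told from the files, and if they are, every direction below turns. All directions below hold for the libraries as labelled. Markers of hippocampal neurons were present in every library, with a summed level of 570.0 to 659.2 CPM in DHEA and 584.0 to 656.7 CPM in sesame oil for Prox1, Calb1, Wfs1, Fibcd1, Bok and Cpne4.

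Complex I (NADH:ubiquinone oxidoreductase) takes electrons from NADH, passes them to ubiquinone and pumps protons across the inner mitochondrial membrane. Its mitochondrially encoded subunits build the membrane arm: ND2, ND4 and ND5 are the large antiporter-like subunits, ND1 lies where the membrane arm meets the peripheral arm and the quinone enters, and ND3, ND4L and ND6 are small subunits between them. The mitochondrial genome is transcribed from both strands into long precursors that are cut into mRNAs, tRNAs and rRNAs. ND6 is the only mRNA of the light-strand transcript, whereas the other 6 ND genes come from the heavy-strand transcript.

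The mRNAs of the 2 strands differ in their sequences, which are taken from the GENCODE M21 transcripts (GRCm38). The opening 60 bases of the ND6, ND5 and ND1 mRNAs are shown because they display the difference in base composition between the strands, with G in capitals.
ND6: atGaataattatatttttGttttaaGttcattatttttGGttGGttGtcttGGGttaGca
ND5: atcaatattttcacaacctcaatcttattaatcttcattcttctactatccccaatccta
ND1: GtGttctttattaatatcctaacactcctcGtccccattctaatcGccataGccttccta
These stretches held 12, 0 and 5 G respectively. Over its whole 519 bases the ND6 mRNA was 28.1% G and 5.97% C, and the 6 heavy-strand ND mRNAs were at most 11.6% G and at least 22.1% C. The GC content did not separate ND6, which had 34.1% against 33.0% (ND3) to 41.1% (ND4L).

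Neighbouring members share bases. The join of ND4L and ND4 (same strand) and the join of ND5 and ND6 (opposite strands, written in the sense of ND5) are shown because a read over the shared bases, in capitals, can be assigned to either gene.
ND4L and ND4: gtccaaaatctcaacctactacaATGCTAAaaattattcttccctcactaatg
ND5 and ND6: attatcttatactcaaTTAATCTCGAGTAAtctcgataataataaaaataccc
ND4L and ND4 shared 7 bases and ND5 and ND6 shared 14. Whether the counting used strand is not given in the sources used here, so sense reads of ND6 and antisense reads over the same bases cannot be told apart.

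Copies of mitochondrial DNA in the nuclear genome are a further source of ambiguity. ND3 and ND4L are shown beside their closest nuclear pseudogene transcripts, with mismatches in capitals, because nearly all read-length windows of these members fit both.
ND3: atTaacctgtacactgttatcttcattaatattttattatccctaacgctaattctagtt
Gm28438: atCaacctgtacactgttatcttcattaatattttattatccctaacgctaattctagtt
ND4L: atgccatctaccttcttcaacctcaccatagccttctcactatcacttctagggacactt
Gm10222: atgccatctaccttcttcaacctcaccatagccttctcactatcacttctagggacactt
Of all windows of 150 bases, the length of 1 read, 193 of 199 in ND3 and 145 of 148 in ND4L were identical to a nuclear pseudogene transcript. The share was 59.2% in ND4, through Gm28439. It was 0% in ND1, ND2, ND5 and ND6. None of the closest pseudogenes is a row of the count table.

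The members fell into 2 levels of counted reads per length (FPKM). ND1 was the highest, with 11296 ± 1214 FPKM (SD, n = 8 libraries). It was followed by ND2 with 7111 ± 851 FPKM, ND5 with 4973 ± 574 FPKM and ND4 with 4386 ± 434 FPKM. The remaining 3 were far lower: ND3 had 224 ± 36.8 FPKM, ND6 had 194 ± 43.6 FPKM and ND4L had 91.4 ± 26.9 FPKM. The gap lay between ND4 and ND3, where the level per length dropped 19.7-fold (17.5 to 22.0 over the libraries). Even the lowest member was counted deeply, with 721 to 1699 counts for ND4L and 2499 to 5319 counts for ND6. For ND3 in sesame oil, with 2113 to 2485 counts, the spread was only 69.1 ± 1.43 CPM (SD, n = 4). Counting error is not small beside that spread. All 7 members passed the filter of at least 1 count.

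**Figure D1:**
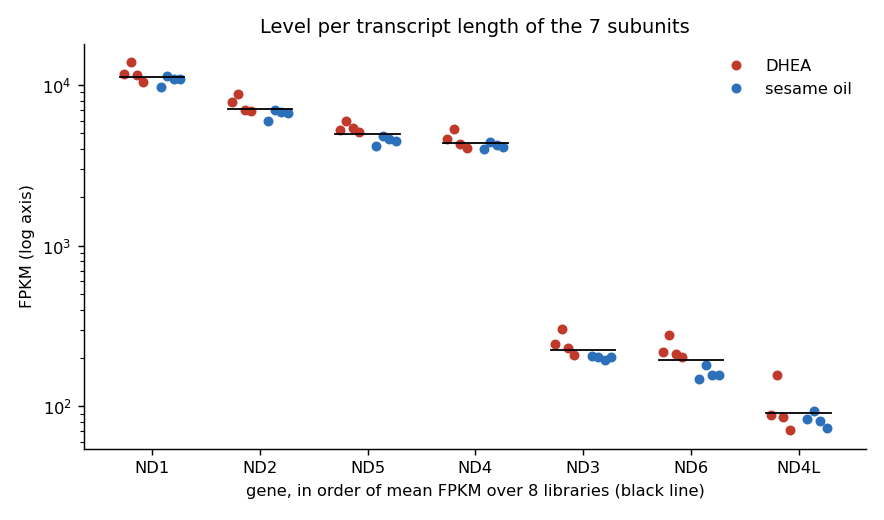
Level per transcript length (FPKM, log axis) of the 7 subunits, ordered by their mean over the 8 libraries (black lines), with 1 point per library, DHEA in red and sesame oil in blue. ND1, ND2, ND5 and ND4 lie at or above 3978 FPKM in every library, and ND3, ND6 and ND4L lie at or below 304 FPKM.

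The order was the same in every library. For each of the 6 neighbouring pairs the gene named as higher was higher in 8 of 8 libraries. The pairs were taken from the order of the means over these same libraries, so they are described with no test. The pairs differed in size. ND5 exceeded ND4 by 1.13-fold (1.06 to 1.25) and ND3 exceeded ND6 by 1.17-fold (1.03 to 1.39), the closest neighbours. ND1 exceeded ND2 by 1.59-fold (1.51 to 1.65), ND2 exceeded ND5 by 1.43-fold (1.29 to 1.49), and ND6 exceeded ND4L by 2.14-fold (1.76 to 2.86). The lengths that the deposited FPKM imply are those of the GENCODE transcripts, 957 bases for ND1, 1038 for ND2, 348 for ND3, 1378 for ND4, 297 for ND4L, 1824 for ND5 and 519 for ND6. The 3 low members are thus also the 3 shortest.

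Set against each heavy-strand gene per length, light-strand ND6 was 59.2-fold below ND1, 37.2-fold below ND2, 26.0-fold below ND5 and 23.0-fold below ND4, and only 1.17-fold below ND3. ND4L was the exception, being lower than ND6. Each of these 6 differences had the same direction in 8 of 8 libraries, and they too are given with no test. A low FPKM was thus shared in these libraries by the light-strand gene and the short heavy-strand genes ND3 and ND4L. These folds compare counted reads per length. How fully each mRNA entered libraries made from polyadenylated RNA, and how reads over shared sequence were counted, was not tested.

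The same division ran through the other 6 mitochondrially encoded mRNAs. COX1, the catalytic subunit of cytochrome c oxidase, had 17353 FPKM over the 8 libraries, and CYTB, the cytochrome b of complex III, had 11922 FPKM. COX2 (252 FPKM), ATP6 (221 FPKM) and COX3 (161 FPKM) were at the level of ND3, ND6 and ND4L, and ATP8 (51.1 FPKM) averaged below each of these. In COX2, ATP6 and COX3, more than 99% of the 150-base windows were identical to a nuclear pseudogene transcript, whereas the share was 0% in ATP8, ND6 and CYTB and 23.6% in COX1. How multi-mapping reads and reads over 2 genes were counted is not given in the sources used here, and the part of these sequences in the low levels was not tested.

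The members are compared between the groups in order of their place in the enzyme. ND1, at the quinone entrance, had 11514, 13675, 10908 and 9928 CPM in DHEA replicates 1 to 4, and 9192, 10814, 10406 and 10180 CPM in sesame oil replicates 1 to 4. DHEA replicate 2 was high and the groups overlapped. The log2 fold change, positive where DHEA was higher, was 0.18 ± 0.09 (SE, edgeR).

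Among the antiporter-like subunits, ND2 had 8282, 9454, 7188 and 7073 CPM in DHEA and 6147, 7208, 7023 and 6784 CPM in sesame oil. ND4 had 6528, 7573, 5900 and 5574 CPM in DHEA and 5420, 6080, 5823 and 5529 CPM in sesame oil. Both overlapped between the groups, with log2 fold changes of 0.24 ± 0.09 for ND2 and 0.16 ± 0.09 for ND4. ND5 had 9791, 11246, 9793 and 9199 CPM in DHEA and 7570, 8682, 8390 and 7998 CPM in sesame oil. For ND5 all 4 DHEA libraries lay above all 4 sesame oil libraries, and its log2 fold change was 0.29 ± 0.08.

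Among the small heavy-strand subunits, ND3 had 87.6, 109, 79.8 and 71.6 CPM in DHEA and 70.3, 69.7, 67.1 and 69.4 CPM in sesame oil. The groups did not overlap, but DHEA replicate 4 exceeded sesame oil replicate 1 by little. The log2 fold change of ND3 was 0.33 ± 0.10. ND4L had 26.8, 47.7, 25.2 and 20.8 CPM in DHEA and 24.6, 27.4, 24.2 and 21.4 CPM in sesame oil. The high value of ND4L in DHEA replicate 2 stood alone, the groups overlapped, and the log2 fold change of 0.30 ± 0.18 became -0.01 without that library.

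Light-strand ND6 had 116, 149, 109 and 104 CPM in DHEA and 75.4, 93.5, 81.1 and 79.6 CPM in sesame oil. Every DHEA library was above every sesame oil library, and replicate 2 was the highest of each group. Its log2 fold change was 0.54 ± 0.10, a mean of 120 ± 20.4 CPM against 82.4 ± 7.79 CPM (SD, n = 4 per group). Without DHEA replicate 2 it was 0.40.

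In all, 7 of the 7 members had a positive log2 fold change and 3 of the 7 (ND3, ND5 and ND6) had groups that did not overlap. Among the 12780 genes that averaged 100 counts or more per library, the groups did not overlap in 4.23% with DHEA higher and in 4.23% with DHEA lower. As the members were chosen with this contrast known, nothing is read from the comparison of these shares. DHEA replicate 2 was the highest of the 8 libraries for each of the 7 members, and without it the log2 fold changes of ND1, ND2, ND3 and ND4 became 0.08, 0.14, 0.20 and 0.06.

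**Figure D2:**
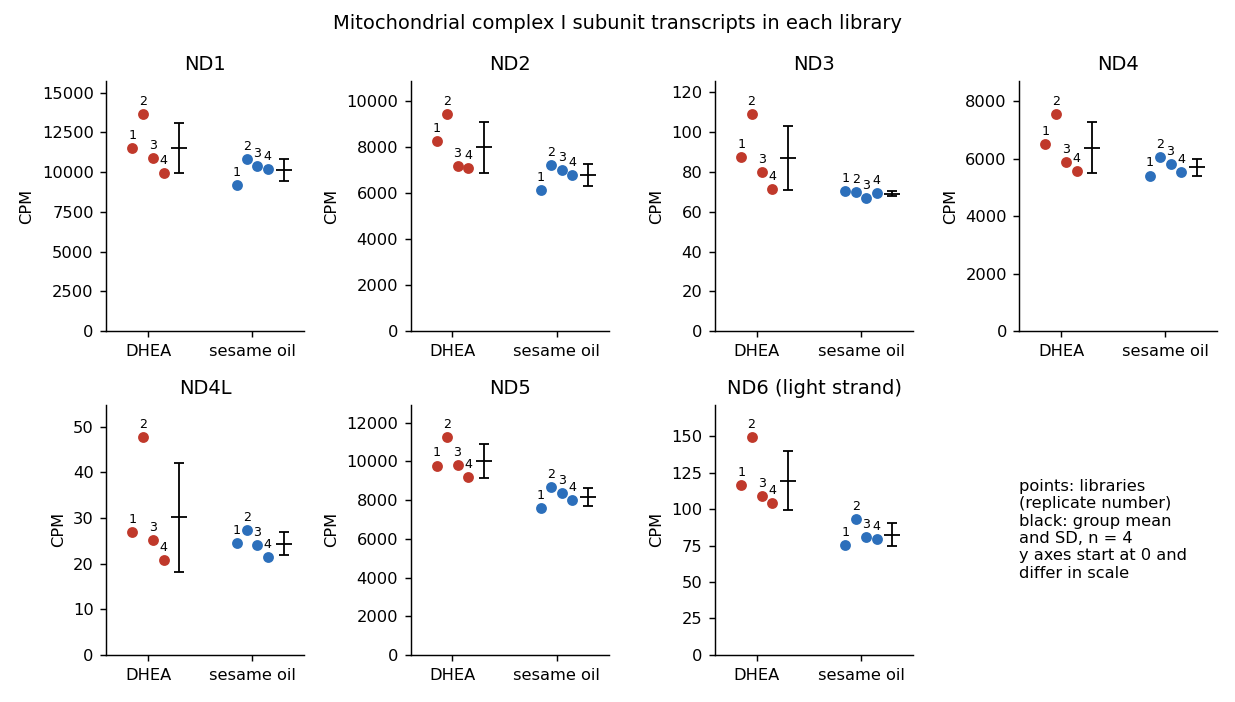
Level of each subunit transcript (CPM, linear axes from 0 with a scale per gene) in the 4 DHEA libraries (red) and the 4 sesame oil libraries (blue), numbered by replicate, with the group mean and SD in black (n = 4). ND5 and ND6 separate the groups clearly, ND3 narrowly, and DHEA replicate 2 is the highest library in every panel.

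The share of all counts that fell on the 13 mitochondrial mRNAs was 7.87%, 9.34%, 7.58% and 7.29% in DHEA and 6.37%, 7.23%, 6.99% and 6.87% in sesame oil. The groups did not overlap, although the lowest DHEA and the highest sesame oil library were close. Within the mitochondrial counts, the ND genes made up 43.9% to 45.2% in DHEA and 45.3% to 45.9% in sesame oil, so that the ND share of mitochondrial mRNA was lower in each DHEA library than in each sesame oil library. Of the ND counts, ND6 took 0.320% to 0.353% in DHEA and 0.255% to 0.284% in sesame oil. The share of ND5 was also higher in every DHEA library, narrowly, with 26.62% to 28.80% against 26.08% to 26.56%, and that of ND4 was lower, with 17.35% to 17.96% against 18.03% to 19.02%. The shares of the other 4 members overlapped.

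The other mitochondrial mRNAs were not uniform. COX1 and CYTB had log2 fold changes of 0.29 ± 0.09 and 0.27 ± 0.09, close to the heavy-strand ND genes, and their groups did not overlap. COX1 ranged from 26721 to 35766 CPM in DHEA and from 22527 to 25182 CPM in sesame oil, and CYTB from 13150 to 17828 CPM and from 11568 to 12958 CPM. COX2 (0.04 ± 0.13), COX3 (-0.15 ± 0.19), ATP8 (-0.26 ± 0.22) and ATP6 (-0.31 ± 0.30), the last 2 of which are subunits of ATP synthase, overlapped between the groups. ATP6 had 346 CPM in sesame oil replicate 2 and 93.2 to 125 CPM in the other 3 sesame oil libraries.

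**Figure D3:**
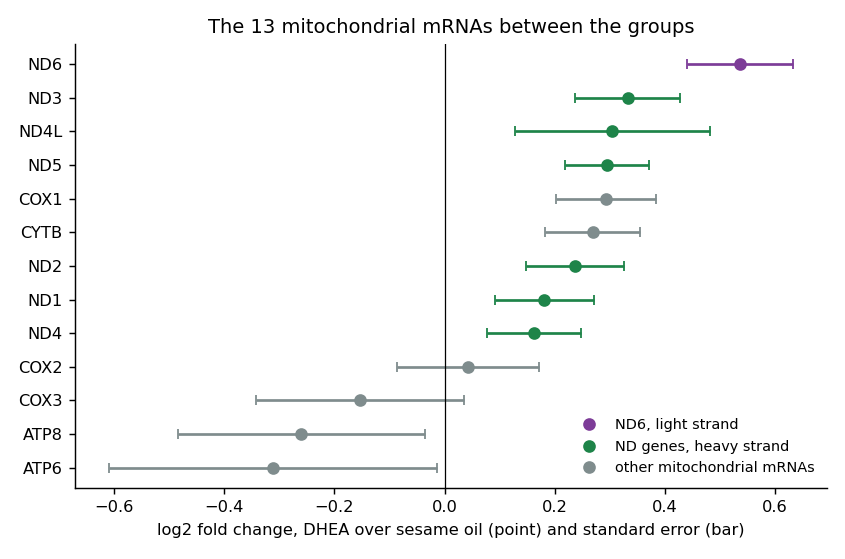
Log2 fold change of DHEA over sesame oil (points) with its standard error (bars) for the 13 mitochondrial mRNAs, with ND6 in purple, the heavy-strand ND genes in green and the others in grey. ND6 has the highest value of the 13, 0.54, the 6 heavy-strand ND genes lie between 0.16 and 0.33, and ATP6, ATP8 and COX3 lie below 0.

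The strand comparison does not depend on the scaling of the libraries, since ND6 and the heavy-strand genes were counted in the same libraries. For every 1000 counts of heavy-strand ND genes, the DHEA libraries held 3.21, 3.54, 3.21 and 3.26 counts of ND6. The sesame oil libraries held 2.65, 2.84, 2.56 and 2.60. The lowest DHEA library was above the highest sesame oil library. With the geometric mean of the 6 heavy-strand genes as the denominator, the log2 ratio was -3.72 ± 0.03 in DHEA and -4.01 ± 0.07 in sesame oil (SD, n = 4 per group), a difference of 0.29 ± 0.04 (SE), or 1.23-fold.

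In DHEA this ratio varied less than its parts did. The SD of log2 CPM in DHEA was 0.23 for ND6 and 0.24 for the heavy-strand mean, against 0.03 for their ratio, DHEA replicate 2 being high in both. In sesame oil the SD was 0.13 for ND6 and 0.07 for both the heavy-strand mean and the ratio. The SD of the log2 ratio in DHEA was wider with other denominators. It was 0.06 without ND4L, 0.07 with the summed counts, 0.05 against CYTB and 0.12 against ND5. With the geometric mean, leaving out any 1 library gave a difference of 0.28 to 0.32. In contrast, the mean log2 fold change of the 6 heavy-strand genes, 0.25, ranged from 0.11 (without DHEA replicate 2) to 0.33 (without DHEA replicate 4).

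Taken gene by gene, the log2 ratio of ND6 to ND4 differed by 0.37 ± 0.05 between the groups, to ND1 by 0.35 ± 0.05, to ND2 by 0.30 ± 0.05 and to ND5 by 0.23 ± 0.07, all with groups that did not overlap. The ratio of ND6 to CYTB, a heavy-strand gene outside complex I, differed by 0.27 ± 0.05, again without overlap. The ratios to the low and short genes overlapped, with differences of 0.21 ± 0.07 for ND3 and 0.29 ± 0.15 for ND4L. Among heavy-strand genes, the ratio of ND5 to ND1 was 0.822 to 0.927 in DHEA and 0.786 to 0.824 in sesame oil, a log2 difference of 0.12 ± 0.04 with overlap. The ratio of ND4 to ND1 was 0.541 to 0.567 in DHEA and 0.543 to 0.590 in sesame oil, a log2 difference of -0.02 ± 0.03.

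**Figure D4:**
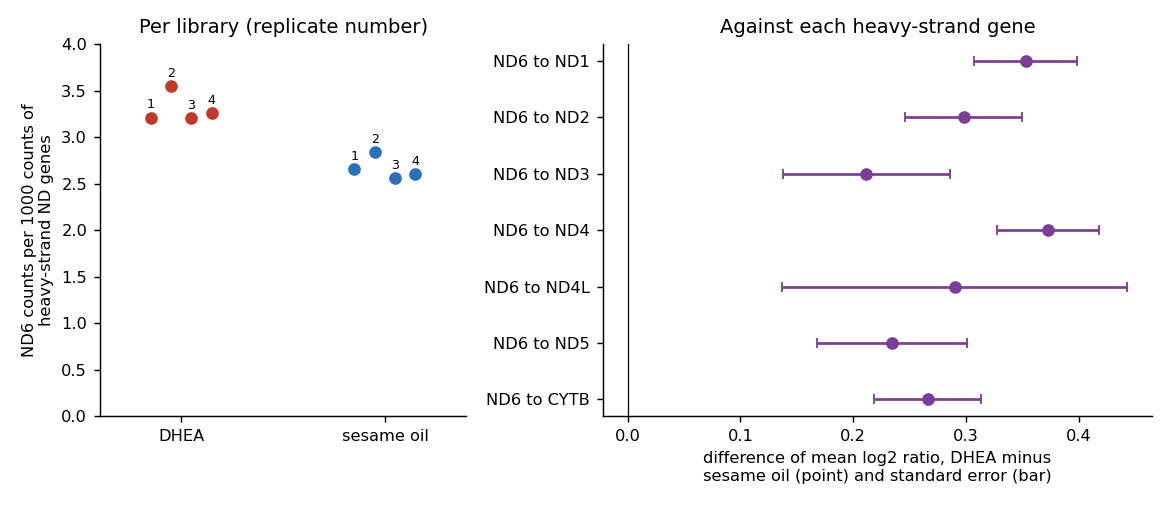
Left, ND6 counts per 1000 counts of heavy-strand ND genes in each library (linear axis from 0, numbered by replicate), DHEA in red and sesame oil in blue. Right, difference between the group means of the log2 ratio of ND6 to single heavy-strand genes (points) with standard errors (bars); the DHEA libraries lie between 3.21 and 3.54 and the sesame oil libraries between 2.56 and 2.84, and all 7 differences are positive.

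Base composition moved with the groups in these libraries. A smooth trend of all genes' deviations with GC content put genes with the GC content of ND6 0.06, 0.09, 0.07 and 0.04 above their 8-library mean on the log2 scale in DHEA replicates 1 to 4, and at -0.07, -0.03, -0.04 and -0.07 in sesame oil. With this trend removed, the log2 fold change of ND6 was 0.42. Those of ND1, ND2, ND3, ND4, ND4L and ND5 were 0.09, 0.13, 0.21, 0.06, 0.24 and 0.20. The mean of the heavy-strand genes was 0.15, and the values of ND1, ND2, ND3 and ND4 moved by over 1.5 times. The difference of the log2 ratio of ND6 to the heavy-strand genes was then 0.27, but as the GC content of ND6 lies within their range, this removal could hardly change the ratio.

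Markers of some cell types differed between the groups at an unadjusted p under 0.05 (edgeR), a threshold passed by 8.08% of the genes averaging 100 counts or more with DHEA higher and by 7.6% with DHEA lower. No marker of any list passed at an adjusted p under 0.05. Each of the 6 markers of oligodendrocytes and myelin was higher in DHEA at the unadjusted threshold. Their summed level was 6163, 7802, 6087 and 6283 CPM in DHEA and 4933, 4909, 4159 and 5931 CPM in sesame oil, without overlap, and Mbp was the most abundant. DHEA replicate 2 was the highest of the 8 libraries for this sum and for ND6, whereas sesame oil replicate 4, the highest of its group for this sum, was second lowest of its group for ND6. Of the other lists, 4 of 6 astrocyte markers, 2 of 6 microglial markers and 3 of 5 endothelial markers were higher at an unadjusted p under 0.05, each with overlapping sums. The sums of the hippocampal neuron subfield markers, given above, also overlapped. Of these 6, Bok (log2 fold change 0.24 ± 0.10) and Cpne4 (0.16 ± 0.07) were higher at this threshold, and 3 had a value above 0. The astrocyte markers, led by Slc1a2, summed to 5334 to 6385 CPM in DHEA and 4636 to 5425 CPM in sesame oil. The microglial markers, led by Csf1r, summed to 208 to 281 CPM and 192 to 225 CPM, and the endothelial markers, led by Flt1, to 238 to 288 CPM and 224 to 241 CPM. Of the 7 neuronal markers, Rbfox3 was lower at an unadjusted p under 0.05, and the sums, led by Snap25, were 5427 to 5911 CPM and 5448 to 6075 CPM. None of the choroid plexus and red blood cell markers passed the unadjusted threshold. Choroid plexus markers, led by Ttr, varied widely in both groups, from 92.0 CPM in DHEA replicate 2 to 4437 CPM in DHEA replicate 1. Red blood cell markers, led by Hbb-bs, summed to 45.7 to 159 CPM and 52.5 to 137 CPM. No marker was at 0 in any library. The part of cell composition in the values of the ND genes was not tested, and in bulk tissue fewer cells of a type and less RNA per cell cannot be told apart.

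The partners of the mitochondrial subunits are encoded in the nucleus: 7 core subunits that carry the flavin and the iron-sulphur clusters, and supernumerary subunits that surround the core. Across all 27612 genes tested, edgeR called 0 genes at an adjusted p under 0.05 (0%), with 2571 genes at an unadjusted p under 0.05, and DESeq2 called 153. At an unadjusted p under 0.05, 4.82% of all genes were higher and 4.49% were lower in DHEA. Among the genes that averaged 100 counts or more these shares were 8.08% and 7.6%.

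Of the 37 nuclear subunits, 8 were higher, 1 was lower and 28 did not pass at an unadjusted p under 0.05, and 0 passed at an adjusted p under 0.05 by edgeR or DESeq2. Their median log2 fold change was 0.10, beside 0.01 for all genes tested, and 32 of the 37 were above 0. Without DHEA replicate 2 the median was 0.05 and 26 were above 0, and leaving out any other library gave a median of 0.08 to 0.14. On log2(FPKM + 1) with limma the median was 0.05 and 28 were above 0. The smallest p belonged to Ndufa5, a subunit of the peripheral arm, with 61.2 to 74.4 CPM in DHEA and 53.2 to 57.2 CPM in sesame oil (log2 fold change 0.24 ± 0.07, unadjusted p = 0.0033, adjusted p = 0.29). Ndufa13, also called Grim19, had 81.9 to 97.4 CPM in DHEA and 75.6 to 80.9 CPM in sesame oil (0.17 ± 0.07, adjusted p = 0.44). In both the groups did not overlap. Ndufs6 (0.20 ± 0.08) and Ndufs4 (0.18 ± 0.08), subunits attached to the peripheral arm, had overlapping groups. Ndufa12, which takes its place beside them, was the one with a lower level, with 66.2 to 88.6 CPM in DHEA and 83.9 to 98.2 CPM in sesame oil (-0.21 ± 0.09, adjusted p = 0.50).

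The 8 with higher levels and Ndufa12 were all among the 30 supernumerary subunits. Of the 7 core subunits, 0 passed at an unadjusted p under 0.05, with a median log2 fold change of 0.05. The most abundant supernumerary subunit by CPM, Ndufa10, had a log2 fold change of 0.03 ± 0.07. Per length, the nuclear subunits averaged from 18.4 FPKM (Ndufa11) to 159 FPKM (Ndufa3) over the 8 libraries, the range in which ND4L also lay, while the other 6 mitochondrially encoded subunits averaged above all 37.

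**Figure D5:**
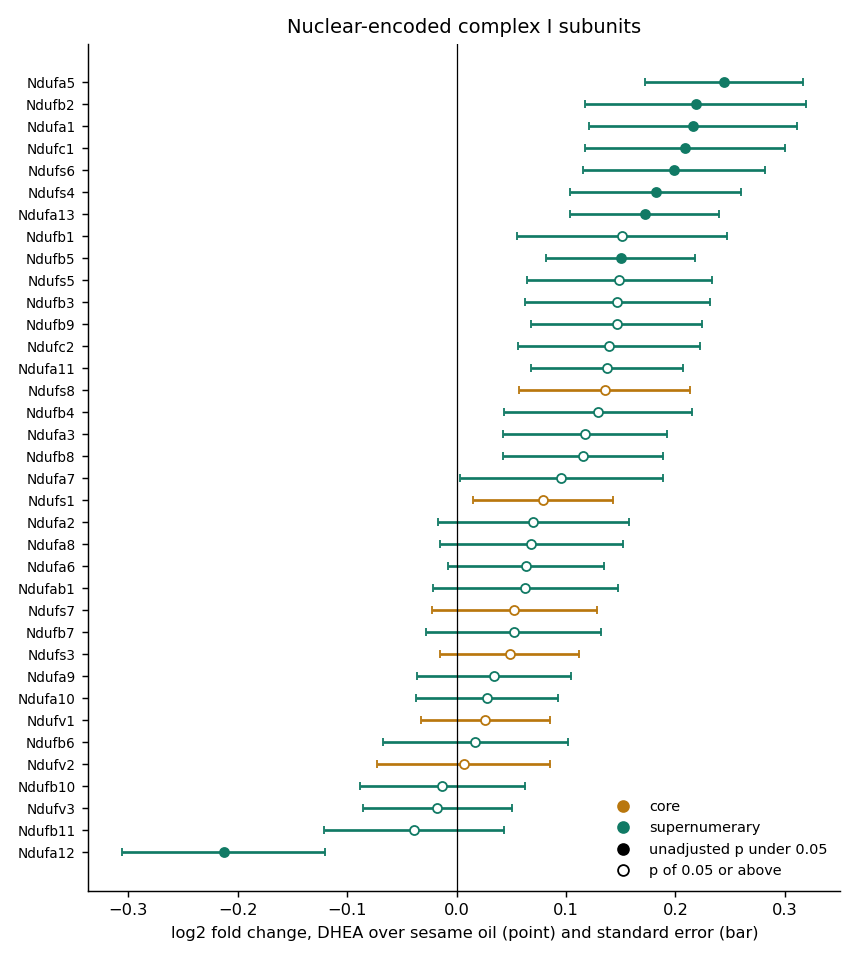
Log2 fold change of DHEA over sesame oil (points) with its standard error (bars) for 36 of the 37 nuclear complex I subunits, core in ochre and supernumerary in green, filled where the unadjusted p was under 0.05. Values run from -0.21 (Ndufa12) to 0.24 (Ndufa5), and each filled point is a supernumerary subunit.

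Of the 18 assembly factors, which help to build the complex and are not part of it, Tmem126b, a membrane-arm factor, was higher at an unadjusted p under 0.05 (0.25 ± 0.11, adjusted p = 0.50 by edgeR). The other 17 did not pass, and the median log2 fold change of the list was -0.02. Acad9, the most abundant by CPM, had a log2 fold change of 0.05 ± 0.07. The count of calls over the nuclear subunits and assembly factors, 10 in all, rested on single libraries. It was 2 without DHEA replicate 1, 3 without DHEA replicate 2, 20 without DHEA replicate 3, 2 without sesame oil replicate 1, 4 without sesame oil replicate 2 and 5 without sesame oil replicate 4.

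Genes that copy, transcribe and process mitochondrial DNA and RNA were counted in the same way, against the shares of 4.82% higher and 4.49% lower over all genes. Among genes that averaged 100 counts or more, as most of them did, the shares were 8.08% and 7.6%. Of 14 genes of mitochondrial DNA maintenance and transcription, Ssbp1, the single-stranded DNA binding protein of mitochondria, was lower at an unadjusted p under 0.05, with 13.3 to 15.6 CPM in DHEA and 15.7 to 19.0 CPM in sesame oil (-0.23 ± 0.10, adjusted p = 0.50 by edgeR). The other 13 did not pass, and the median log2 fold change was -0.09. Polg, the mitochondrial DNA polymerase and the most abundant of them by CPM, had a log2 fold change of -0.14 ± 0.08. Of 19 genes of mitochondrial RNA processing and turnover, Slirp, an RNA-binding partner of Lrpprc in the stabilisation of mitochondrial mRNAs, was higher at an unadjusted p under 0.05 (0.27 ± 0.11, adjusted p = 0.46). Grsf1, an RNA granule protein and the most abundant of them by CPM, had -0.06 ± 0.07, and the median was 0.00. None of the 5 regulators of mitochondrial biogenesis passed, and their median log2 fold change was -0.09. The most abundant by CPM, Ppargc1a, had 54.5 to 63.4 CPM in DHEA and 52.3 to 59.5 CPM in sesame oil (0.10 ± 0.07). It was the only 1 of the 5 above 0. The 2 calls among these lists became 0 without DHEA replicate 2 or sesame oil replicate 1, 1 without DHEA replicate 1 or sesame oil replicate 3, 4 without DHEA replicate 4 and 6 without DHEA replicate 3.

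Likeness of the profiles over the 8 libraries was measured as the root mean square difference of centred log2 CPM, over the same 12780 genes. The gene closest to the mean profile of the 6 heavy-strand ND genes, which contains those genes themselves, was CYTB (0.04). The nuclear genes Rpl22l1, Zfp763, Triap1 and Rpl34 (0.05 each) were close behind. COX1 ranked 6, ND4 8, ND1 9, ND2 12, ND3 20 and ND5 89. ND6 ranked 2163 (0.15) and ND4L 3849 (0.18), while COX2 ranked 3808, COX3 11255, ATP8 12186 and ATP6 12476. ND4L and these 4 genes, all of the heavy strand, were thus farther from this mean than ND6 was.

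The genes closest to ND6 were the nuclear genes Prrg1 (0.09), Chpt1, Tdo2, Churc1 and Mrps28 (0.12 to 0.13). Chpt1 encodes a choline phosphotransferase and Mrps28 a protein of the mitochondrial ribosome. Of the mitochondrial mRNAs, COX1 was the nearest to ND6 at rank 8, ahead of ND3 (18), ND5 (21), CYTB (27), ND2 (65), ND1 (206) and ND4 (312). The remaining ranks from ND6 were 1282 for ND4L, 4823 for COX2, 10753 for COX3, 12288 for ATP8 and 12358 for ATP6. These likenesses span the contrast of the groups and are a description of 8 points.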

How the data were processed

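The authors sequenced hippocampal RNA with paired reads of 150 bases and deposited raw counts per gene and FPKM values. The submitters' processing notes name fastp, HISAT2, HTSeq and the build GRCm39. Versions and the treatment of strand and multi-mapping reads are not given in the sources used here. The deposited FPKM are the counts divided by the library total and by transcript length. Here, TMM normalization and the quasi-likelihood test of edgeR 4.0.16 (R 4.3.3) were applied to the 27612 genes with at least 1 count (prior count 0.125), with Benjamini-Hochberg adjustment over all of them. The standard error was the size of the log2 fold change divided by the square root of F. Nuclear look-alikes were found with BLAST 2.17.0. Scripts were tested on simulated data.

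The members and lists were chosen with earlier results of these data known. From each list, genes with an unadjusted p under 0.05 (at most 5, by smallest p) and the most abundant gene by CPM were named, and the 5 nuclear genes nearest in profile. Fastkd4 matched no row of its own, and some genes that these rules name are not reported here. Alternatives were RLE, total counts, normalization without mitochondrial genes, DESeq2 1.42.0, filters, a prior count of 1, limma 3.58.1 on log2(FPKM + 1) and log2(FPKM + 0.1), removal of the GC trend, other denominators and leaving out each library. The GC content was known for 92.8% of the 16813 genes that averaged 10 counts or more.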

Additional observations from a re-analysis of the deposited data

Results flagged for a closer look

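Of 64 groups of 4 libraries examined for a library far from the others, 2 were flagged, where chance alone flags about 1 in 20. In sesame oil, ATP6 had 346 CPM in replicate 2, far above the other 3 libraries at 93.2 to 125 CPM. In DHEA, the summed level of the oligodendrocyte and myelin markers was 7802 CPM in replicate 2, far above the other 3 libraries at 6087 to 6283 CPM. The same library was the highest for each of the 7 ND genes, and the values without it stand beside those genes. None of the 7 ND genes was flagged in either group.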

How the results depend on the processing

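Under the other settings, the log2 fold changes of the 7 ND genes kept their direction, except for ND4L without DHEA replicate 2 (-0.01). Their sizes moved. Without DHEA replicate 2 all but that of ND5 fell by more than their SE. With the GC trend removed all but that of ND4L did so. The log2 fold change of ND6 was 0.42 to 0.54 under other normalizations, filters and tools and with the GC trend removed. The difference of the log2 ratio of ND6 to the heavy-strand genes was 0.31 with the sum of their counts as denominator, 0.29 without ND4L and 0.27 against CYTB alone; other normalizations cannot change it. The order of the 7 levels holds in every library, so that neither subsets of the libraries nor division of the counts by the same lengths could alter it. The count of nuclear complex I genes at an unadjusted p under 0.05, 10 in all, was 5 with total counts only and 6 with the GC trend removed, and 2 to 20 when 1 library was left out. The 2 calls among genes of mitochondrial expression and biogenesis became 1 with the GC trend removed and 0 to 6 when 1 library was left out. Genes at an adjusted p under 0.05 numbered 153 by DESeq2, against 0 by edgeR, and 0 to 93 when 1 library was left out, the 93 without DHEA replicate 3. The cause of these shifts was not tested. RLE normalization changed the split of unadjusted calls over all genes from 1332 higher and 1239 lower to 1214 and 1384, and total counts only to 990 and 1573. No paired analysis was possible because the labels give the groups no shared numbers. The fewest counts of a member in a library were 721 for ND4L, whose SE of 0.18 was the largest of the 7.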
